A study of Mus musculus with 12 samples.

Results

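The genes described here were the 10 named components of the circadian clock, Clock, Arntl, Per1, Per2, Per3, Cry1, Cry2, Nr1d1, Nr1d2 and Dbp, in mouse primary hippocampal neurons treated with a mimic of miR-148a-3p or with a negative control. They were taken by name from the 48709 genes of the count tables, and all 10 were among the 18847 genes that passed the filter on low counts (5 counts or more in 6 or more of the 12 libraries). The circadian clock is a loop of transcription: the proteins CLOCK and BMAL1 (encoded by Arntl) bind E-boxes in DNA and activate the Per and Cry genes, whose proteins then repress CLOCK and BMAL1. In an interlocked loop, the receptors REV-ERB alpha and beta (Nr1d1 and Nr1d2) repress Arntl through ROR elements that the ROR receptors activate, and DBP activates genes through D-boxes. Neurons and glia of the hippocampus carry such clocks, and in the animal they are set by the light-entrained clock of the hypothalamus, which a culture lacks.

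Both groups were cultures of hippocampi pooled from embryonic day 17 CD1 embryos, and each culture received lipid nanoparticles together with apolipoprotein E4 at day 10 in vitro. The nanoparticles carried the mimic, a synthetic RNA with the sequence of miR-148a-3p, in 6 cultures and a negative control oligonucleotide in the other 6. All cultures were harvested 48 h later, at day 12 in vitro. The labels name no clock time, and a single harvest per culture means that a change in the level of a clock gene cannot be told apart from a change in the phase or the synchrony of its rhythm. In bulk RNA of mixed cultures, fewer cells of a type cannot be told apart from less RNA per cell either. Beyond the sample numbers nothing says that the 6 samples of a group came from separate preparations, so p-values measure the spread between these samples, which may be technical.

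The sequences of both oligonucleotides are shown because the letters at positions 2 to 8, in capitals, are the seed through which a microRNA recognises its targets. The mimic was identical to the mature miR-148a-3p of RefSeq. The control sequence is the control for mimics in the study's reagent list, while the text deposited with the series speaks of a siRNA, so its sequence and seed counts hold only if that reagent was the one used.
miR-148a-3p mimic: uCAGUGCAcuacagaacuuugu
negative control: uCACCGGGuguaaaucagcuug
In the longest annotated 3 prime untranslated region (UTR) of each clock gene, matches to the mimic seed were found in 2 of the 10 genes, Clock with 3 sites and Per1 with 1 site. All 4 were 7-base sites, a match either to positions 2 to 8 or to positions 2 to 7 followed by an A, and none was an 8-base site. Of the 15082 tested genes with a UTR, 21.9% carried a site for the mimic seed and 4.42% a site for the control seed. No clock gene carried a site for the control seed. The UTR of Clock, at 6831 bases, was the longest of the 10, and that of Per1 had 803 bases. A match of letters is a description and does not show that a site is used. The 4 sites, in capitals within 30 bases of the GRCm38 sequence, were as follows.
Clock, positions 858 to 864 of the UTR, chr5:76215823-76215852, minus strand: tttgagagaatTGCACTGctttattatttt
Clock, positions 3048 to 3054 of the UTR, chr5:76213634-76213663, minus strand: tggaagttgggaGCACTGAagcagtccaac
Clock, positions 6387 to 6393 of the UTR, chr5:76210295-76210324, minus strand: tttggaaatacaGCACTGAataaaatgcag
Per1, positions 184 to 190 of the UTR, chr11:69105827-69105856, plus strand: gcctgggggctgGCACTGAgacaagcaggc

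Library totals ranged from 20018234 to 37149112 counts and did not differ between the groups beyond the spread of the libraries (exact permutation test, two-sided, p = 0.515). The shallowest libraries were control replicates 1 and 2. Control replicate 1 also stood apart in its profile: its genes deviated from the mean of the other controls by a median of 0.215 on the log2 scale, against 0.0765 to 0.124 for controls 2 to 6 and 0.0688 to 0.0891 for the mimic libraries. The results below come from all 12 libraries, and the calls of the clock genes and of the other clock pathway genes are given also without control replicates 1 and 2, an alternative chosen after the values of the clock genes had been seen. Of the marker genes, those of neurons summed to 7676 to 8438 CPM (counts scaled to the same library total) in control and 7766 to 8190 in mimic, and those of astrocytes to 4827 to 5313 and 5654 to 6113, so that both cell types were present in every library.

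Expressed per kilobase of exon, the clock genes spanned from 17.03 ± 1.69 RPKM for Cry2 to 2.93 ± 0.256 RPKM for Per3 in control (SD, n = 6). Nr1d1, Per1 and Clock followed Cry2 with 12.2, 11.1 and 9.42 RPKM, and the control libraries of neighbouring genes overlapped within this trio. Per2 and Nr1d2 came next with 6.22 and 5.87 RPKM and overlapped each other. Cry1, Arntl, Dbp and Per3 were the lowest, between 3.81 and 2.93 RPKM, each overlapping its neighbour. In mimic, Per1 had 12.8 ± 0.584 and Nr1d1 11.3 ± 0.288 RPKM, and Arntl with 4.67 ± 0.244 and Cry1 with 4.35 ± 0.239 RPKM lay further above Per3 and Dbp, both at 2.55 RPKM.

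**Figure D1:**
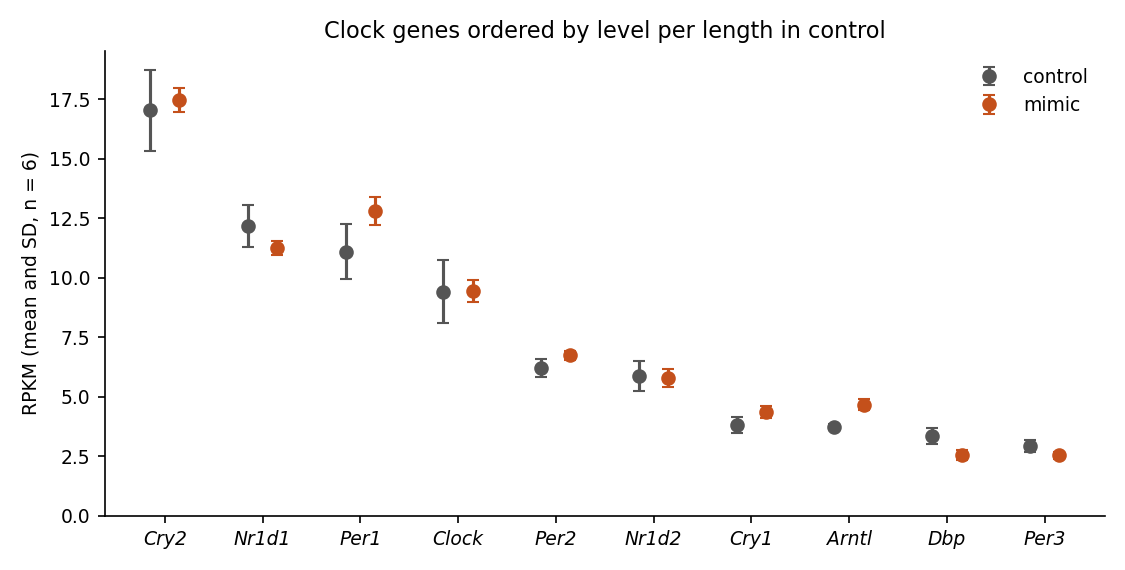
Level per length (RPKM, vertical axis) of the 10 clock genes, ordered by their mean in control, in control (grey) and mimic (orange) cultures, with points as means and bars as SD over 6 libraries. Cry2 was the highest in both groups, 17.03 RPKM in control, and Arntl moved up and Dbp down between the groups.

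Between mimic and control, 5 of the 10 clock genes passed an adjusted p of 0.05 in edgeR's quasi-likelihood test over all tested genes. Arntl, Per1 and Cry1 were higher in mimic, and Per3 and Dbp lower. Of all tested genes 22.2% passed, 11.5% higher and 10.7% lower in mimic. A count of 3 and 2 among 10 genes rests on few genes, and nothing is read from it about the clock as a group. The groups did not overlap in CPM for 2 of the 10, Arntl and Dbp, and for 13.3% of all tested genes. The median log2 fold change of the 10 was 0.02, beside -0.01 for all tested genes, and the median of its size was 0.16 beside 0.12. The log2 fold changes of the 10 ranged from -0.38 to 0.32. In edgeR's test against a minimum change of 1.2-fold (glmTreat), 0 of the 10 passed, where 5.49% of all tested genes passed. In that test 2 of the 10, Arntl and Dbp, had an unadjusted p below 0.05. A gene that does not pass it may still have changed by more than 1.2-fold.

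**Figure D2:**
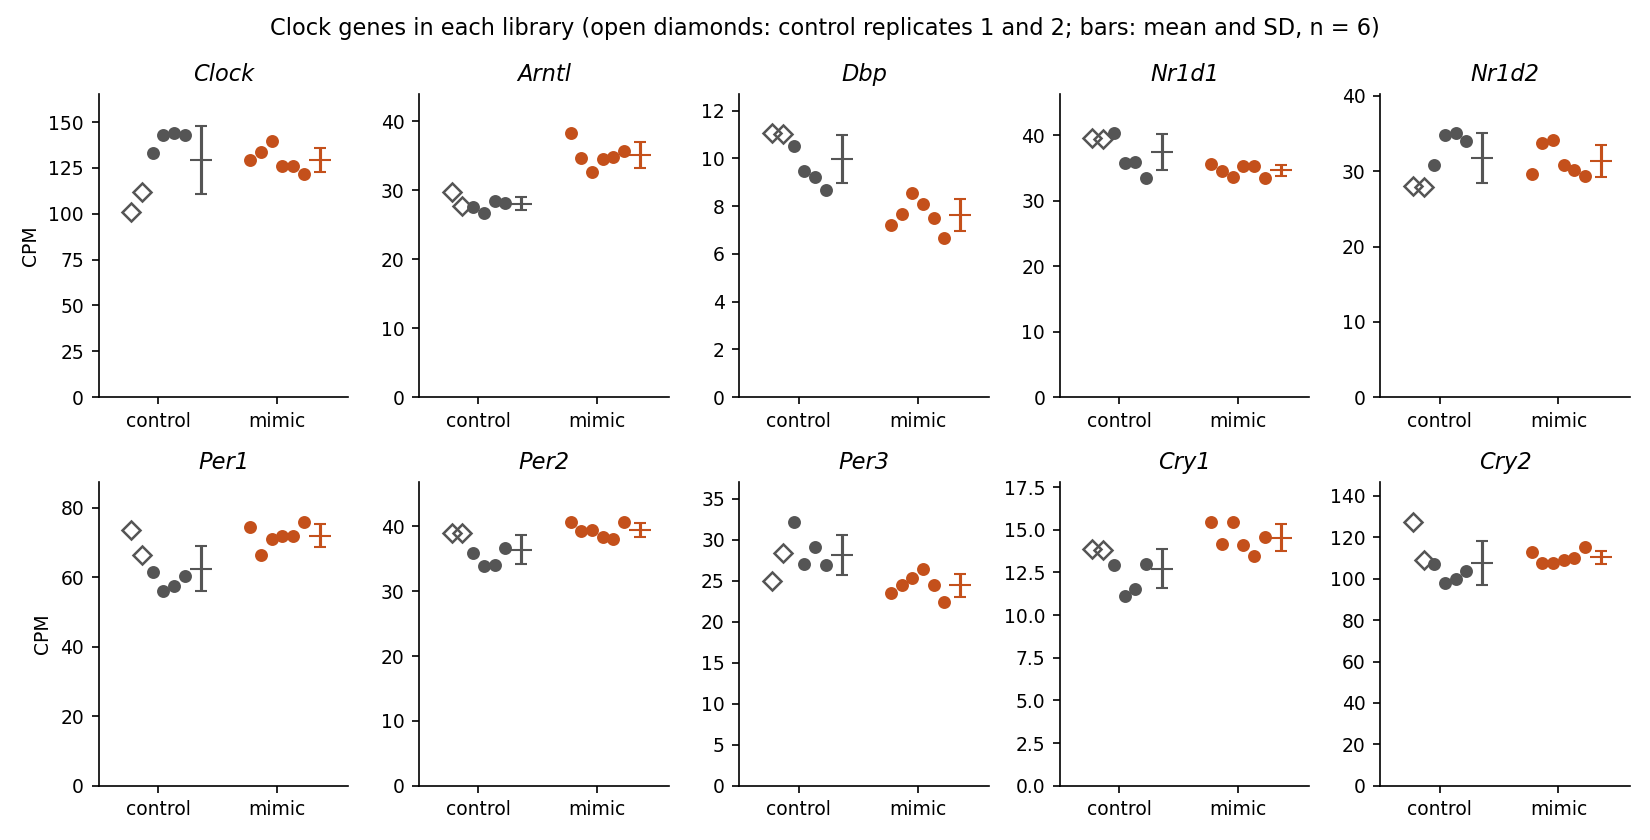
CPM (vertical axis, from 0) of each clock gene in the 6 control (grey) and 6 mimic (orange) libraries, with open diamonds for control replicates 1 and 2 and bars for mean and SD. Arntl and Dbp separate the groups completely, while in Clock, Nr1d2, Dbp, Per1, Per2, Cry1 and Cry2 control replicates 1 and 2 lie at one edge of the controls.

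Arntl, which encodes BMAL1, the partner of CLOCK, rose. Its level ranged from 26.7 over a median of 27.9 to 29.7 CPM in control and from 32.7 over 34.8 to 38.3 CPM in mimic. All 6 mimic libraries were above all 6 controls. Its log2 fold change was 0.32 (SE 0.0424, 95% interval 0.24 to 0.41, adjusted p = 2.25e-05), a rise of 25.3%. Leaving out any 1 library gave values from 0.30 to 0.35, each past the threshold. The gene lies on the plus strand of chr7:113207465-113314126, and none of its exons shares more than 33 bases with another gene. Of the clock genes searched, only Arntl held the core of a ROR element, TAGGTCA on either strand, within the RefSeq promoter windows (GRCm38), which run from 250 bases before to 50 after a start site. It is shown in capitals because ROR and REV-ERB receptors act on Arntl through such elements, and 2.61% of all 32851 windows hold these letters.
Arntl, 30 bases after the start site, chr7:113207529-113207558, plus strand: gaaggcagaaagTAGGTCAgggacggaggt

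Clock, the transcription factor that pairs with BMAL1 (chr5:76209868-76304792), did not pass the threshold with all libraries. It ranged from 101 over 138 to 144 CPM in control and from 122 over 128 to 140 CPM in mimic. The controls spread widely and enclosed every mimic library, with control replicate 1 at 101 and control replicate 2 at 112 CPM below the other 4, which lay between 133 and 144 CPM. With all 12 libraries its log2 fold change was -0.001 (SE 0.0773, 95% interval -0.17 to 0.16, adjusted p = 0.997). Without control replicates 1 and 2 it was -0.12 (adjusted p = 0.0108), so the call for Clock rested on these libraries.

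Dbp, a PAR bZIP transcription factor and a direct output of CLOCK and BMAL1, fell. It ranged from 8.70 over 9.99 to 11.1 CPM in control and from 6.68 over 7.59 to 8.57 CPM in mimic. All 6 mimic libraries were below all 6 controls, by a narrow margin at the closest pair. Dbp had a log2 fold change of -0.38 (SE 0.0757, 95% interval -0.54 to -0.22, adjusted p = 0.00122), a drop to 0.767 of the control level, and -0.31 without control replicates 1 and 2 (adjusted p = 0.00183). Dbp had the fewest reads of the 10 genes, 190 to 390 counts per library. Its exons (chr7:45705088-45710203) share 539 bases with Sphk2 on the opposite strand, and the library kit does not mark strand, so that reads from the shared bases cannot be assigned. Sphk2 had a log2 fold change of 0.10 (adjusted p = 0.289), opposite in sign to that of Dbp.

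Within each library, the level per length of Arntl was 1.00 to 1.29 times that of Dbp in control and 1.52 to 2.13 times in mimic. Arntl stood in a similar relation to Per3, at 1.09 to 1.52 times its level in control and 1.64 to 2.08 times in mimic. Neither ratio overlapped between the groups. These ratios restate the levels given for the single genes and were not tested.

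**Figure D3:**
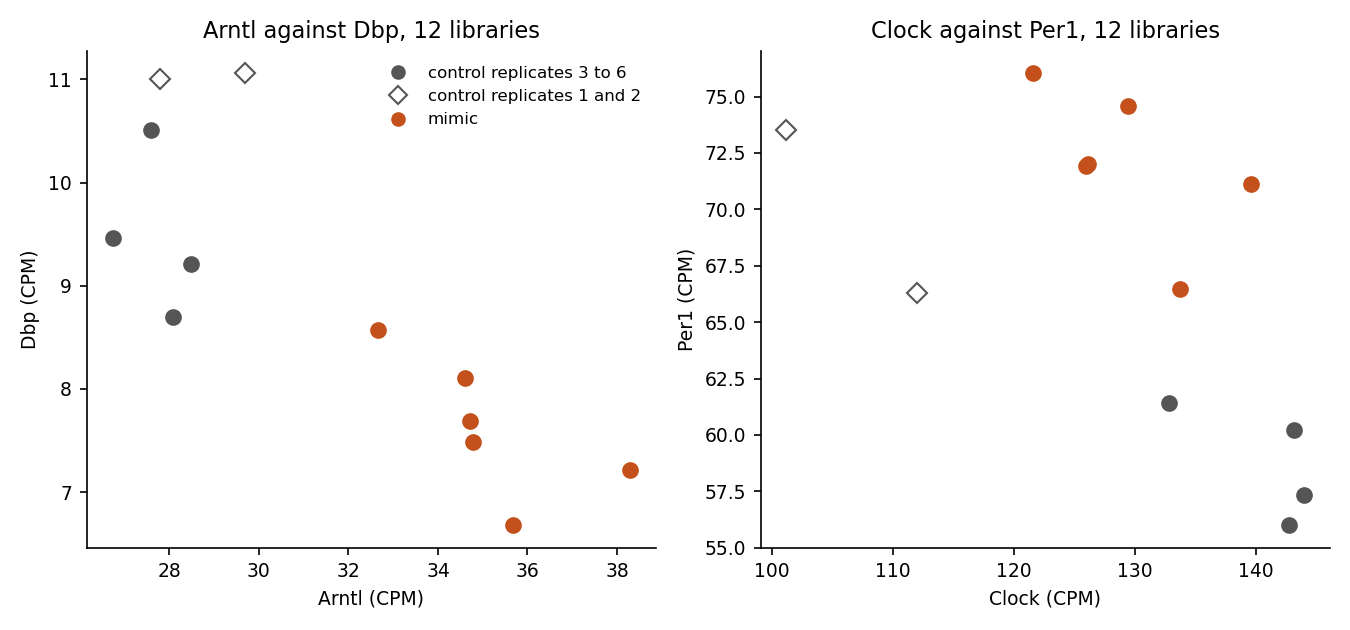
CPM of Arntl against Dbp (left) and of Clock against Per1 (right), 1 point per library, with control replicates 3 to 6 in filled grey, control replicates 1 and 2 as open diamonds and mimic in orange; the axes do not start at 0. On the left the groups occupy opposite corners, and on the right control replicates 1 and 2 lie away from the other controls, with Clock at 101 and 112 CPM.

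The REV-ERB genes, repressors of Arntl, did not pass the threshold. Nr1d1 (chr11:98767932-98775333) ranged from 33.4 over 37.7 to 40.3 CPM in control and from 33.5 over 34.9 to 35.6 CPM in mimic. The mimic libraries lay inside the lower part of the control range. Its log2 fold change was -0.11 (SE 0.0470, 95% interval -0.21 to -0.01, adjusted p = 0.105), and of the alternatives run it passed only without control replicate 6 (-0.14, adjusted p = 0.0293). Without control replicates 1 and 2 it was -0.07 (adjusted p = 0.211). Its exons share 263 bases with Thra on the opposite strand, a thyroid hormone receptor gene with a mean of 34596 counts per library beside 1073 for Nr1d1, and Thra had a log2 fold change of -0.15 (adjusted p = 0.0551). Nr1d2 (chr14:18204054-18239127) ranged from 27.9 over 32.4 to 35.1 CPM in control and from 29.4 over 30.5 to 34.1 CPM in mimic. The groups overlapped throughout, with control replicates 1 and 2 the lowest of all 12 libraries, and the log2 fold change was -0.02 (95% interval -0.16 to 0.11, adjusted p = 0.846). Leaving out controls 1 and 2 gave -0.10 (adjusted p = 0.125).

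The 3 Period genes, whose proteins form the repressing complex with the cryptochromes, did not share a direction. Per1, known to respond quickly to signals from outside the cell, rose. It ranged from 56.0 over 60.8 to 73.5 CPM in control and from 66.5 over 72.0 to 76.0 CPM in mimic. The groups overlapped through control replicate 1 alone, which at 73.5 CPM lay above 4 of the 6 mimic libraries, and the lowest mimic library lay just above control replicate 2 at 66.3 CPM. Per1 had a log2 fold change of 0.21 (SE 0.0575, 95% interval 0.09 to 0.33, adjusted p = 0.0140) and 0.29 without control replicates 1 and 2 (adjusted p = 1.38e-06). Per1 lies on the plus strand of chr11:69095217-69109960.

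Per2 ranged from 33.9 over 36.3 to 38.9 CPM in control and from 38.1 over 39.3 to 40.7 CPM in mimic. All mimic libraries were above the control mean and 4 of 6 above every control, the overlap coming from control replicates 1 and 2 at 38.9 CPM each. For Per2 the log2 fold change was 0.12 (SE 0.0427, 95% interval 0.03 to 0.21, adjusted p = 0.0588). The call depended on the tool and on these controls: DESeq2 gave an adjusted p of 0.0294 and limma-voom 0.0480, and without control replicates 1 and 2 edgeR gave a log2 fold change of 0.17 (adjusted p = 0.00112). Per2 lies at chr1:91415982-91459324.

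Per3, whose loss leaves the loop running, fell. It ranged from 24.9 over 27.7 to 32.2 CPM in control and from 22.4 over 24.5 to 26.5 CPM in mimic. The mimic libraries lay low, 4 of 6 of them below every control, and control replicate 1 at 24.9 CPM was the only control that reached into the mimic range. For Per3 the log2 fold change was -0.20 (SE 0.0574, 95% interval -0.33 to -0.08, adjusted p = 0.0155), with -0.24 (adjusted p = 0.00109) without control replicates 1 and 2. Per3 (chr4:151003652-151044665) was the only one of the clock genes searched with a D-box, TTATGTAA or TTACGTAA on either strand, in its RefSeq promoter window, and it had 2 of them. They are shown because D-boxes are the elements of DBP and its relatives, and 1.06% of all windows hold one.
Per3, 205 bases before the start site, chr4:151044852-151044881, minus strand: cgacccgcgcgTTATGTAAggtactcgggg
Per3, 158 bases before the start site, chr4:151044805-151044834, minus strand: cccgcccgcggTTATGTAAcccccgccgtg

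Of the cryptochromes, the strongest repressors of CLOCK and BMAL1, Cry1 rose and Cry2 did not pass the threshold. Cry1 (chr10:85131700-85185064) ranged from 11.1 over 12.98 to 13.9 CPM in control and from 13.5 over 14.4 to 15.5 CPM in mimic. All mimic libraries were above the control mean and 5 of 6 above every control. For Cry1 the log2 fold change was 0.20 (SE 0.0623, 95% interval 0.07 to 0.33, adjusted p = 0.0296). Its call was the least stable of the 5: without control replicate 4 or 5, or mimic replicate 1, 3 or 6, the adjusted p lay between 0.0546 and 0.0724. Without control replicates 1 and 2 the log2 fold change was 0.26 (adjusted p = 0.00159).

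Cry2 (chr2:92403646-92434043), the most abundant clock gene per length, ranged from 97.8 over 106 to 128 CPM in control and from 107 over 110 to 115 CPM in mimic. The controls enclosed the mimic libraries, with control replicate 1 at 128 CPM the highest of all. Its exons share 295 bases with D930015M05Rik on the opposite strand, which had a mean of 29.3 counts per library beside 3234 for Cry2. For Cry2 the log2 fold change was 0.04 (95% interval -0.07 to 0.15, adjusted p = 0.662). Without control replicate 1 it was 0.09 (adjusted p = 0.0495), and without control replicates 1 and 2 it was 0.11 (adjusted p = 0.00840), so this call rested on those controls too.

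E-boxes are the elements of CLOCK and BMAL1. Of the 10 clock genes 9, all but Per2, were matched to RefSeq promoter windows. The letters CACGTG stood in windows of Per1 and Cry1, and the variant CACGTT, called the E-prime box, on one strand or the other in windows of Cry1, Cry2 and Nr1d1. These letters stood in 7.15% and 4.69% of all windows. The windows of Clock, Nr1d2 and Dbp held none of the motifs searched, which included the CRE TGACGTCA, the element of CREB, held by 1.79% of all windows and by none of the clock genes' windows. The elements of the genes that rose are shown.
Per1, E-box 166 bases before a start site, chr11:69098771-69098800, plus strand: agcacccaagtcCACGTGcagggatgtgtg
Cry1, E-box 60 bases before the start site, chr10:85185097-85185126, minus strand: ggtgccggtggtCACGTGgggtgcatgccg
Cry1, E-prime box 79 bases before the start site, chr10:85185116-85185145, minus strand: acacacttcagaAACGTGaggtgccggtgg

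**Figure D4:**
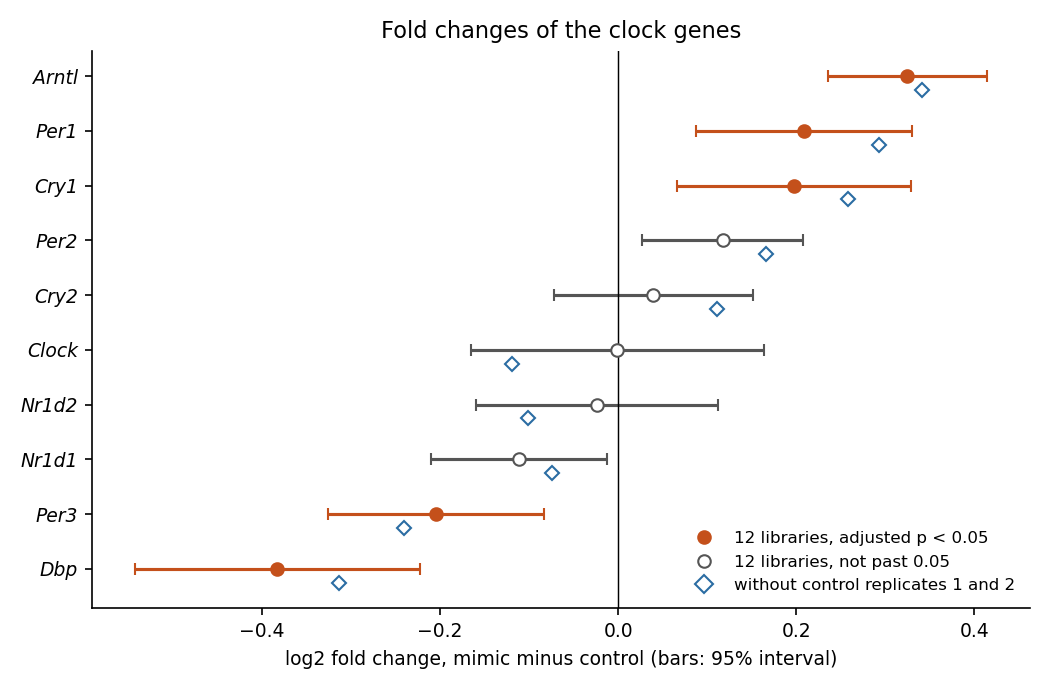
Log2 fold change of mimic minus control (horizontal axis) of the 10 clock genes with 95% intervals from all 12 libraries, filled orange where the adjusted p was below 0.05, and with blue diamonds for the value without control replicates 1 and 2. Arntl lies furthest to the right at 0.32 and Dbp furthest to the left at -0.38. The diamonds lie further from 0 than the circles in all genes but Dbp and Nr1d1.

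Without control replicates 1 and 2, 8 of the 10 clock genes passed, 5 higher and 3 lower, where 31.3% of all 19002 genes tested in that fit passed. The genes added were Per2 and Cry2, higher, and Clock, lower. The groups of 4 and 6 libraries did not overlap in CPM for 7 of the 10 and for 23.3% of the 18847 genes, again in an alternative chosen after these values had been seen. The part that the composition or depth of control replicates 1 and 2 plays in these differences was not tested.

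Around the means of their groups, some of the clock genes moved together from library to library. Of the 45 pairs, 8 had a Pearson r above 0.8 in size, and fewer did so without control replicates 1 and 2. The share of all gene pairs past that size was not computed, so nothing is read from this count. No pair with Arntl exceeded 0.59 and none with Per3 0.49. These limits held only with control replicates 1 and 2: without them Per3 followed Dbp with r = 0.86, against 0.33 with all libraries, and Nr1d1 with 0.71, against 0.27, and Arntl and Dbp had -0.62, against -0.26. The closest pairs over all libraries are given next, and all pairs named were chosen after their values were seen. Clock and Nr1d2 followed each other (Pearson r = 0.91, Spearman rho = 0.90 over 12 libraries of log2 CPM centred within groups), also without these controls (r = 0.92 over 10 libraries). Per1 and Cry2 followed each other with r = 0.95 (rho = 0.90), and 0.89 without them. Per2 and Cry1 did so with r = 0.91 (rho = 0.92) and 0.86. Clock and Per1 moved in opposite directions with r = -0.91 (rho = -0.90), which fell in size to -0.63 without control replicates 1 and 2. All genes of a library share its RNA, depth and scaling, so these values describe the libraries and carry no test.

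By the same measure, the most similar of 12370 other genes with a mean of at least 100 counts was Gm2a for Arntl (r = 0.90), followed by Tbc1d1 (0.90). For Per1 they were Itpka (0.98) and Trappc9 (0.97), and for Per3 Mapk4 (0.94) and Ddhd2 (0.93). For Cry1 they were Npas4 (0.96), an activity-dependent transcription factor that itself rose, and Dennd3 (0.94). For Dbp they were Zfp423 (0.97) and Prodh (0.94). Of these 10 genes, Gm2a, Npas4 and Zfp423 were higher and Ddhd2 and Prodh lower in mimic.

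Among 45 other genes of the clock pathway, all of them tested, 13 passed, 11 higher and 2 lower in mimic, with a median log2 fold change of 0.04. This is a share of 28.9% beside 22.2% of all tested genes. The lists are those of activators, repressors, PAR bZIP factors, enzymes of clock protein turnover, cofactors and outputs, and the genes that passed were unevenly spread over them, from 0 of 10 cofactors to 6 of 10 outputs. Unevenness between lists of this size was not tested. Without control replicates 1 and 2, 18 of the 45 passed, 15 higher and 3 lower, a share of 40.0% beside 31.3% of all genes in that fit. The genes added, Tef, Csnk1d, Ppp1ca and Hdac3, higher, and Cipc, lower, had log2 fold changes between -0.09 and 0.14 there. A site for the mimic seed stood in the UTR of 14 of the 45 genes, or 31.1%, beside 21.9% of all tested genes with a UTR. Of the genes that passed, Rorb, Hlf, Usp7 and Klf9, which rose, and Bhlhe41 and Tspo, which fell, held one, and whether sites were more frequent among them was not tested.

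Of 4 other activators, the receptors Rora and Rorb, which activate Arntl, rose, and Npas2 and Arntl2 did not pass. Rora ranged from 17.1 to 24.4 CPM in control and from 25.5 to 29.8 CPM in mimic, without overlap (log2 fold change 0.40, SE 0.0734, adjusted p = 0.000601), and had a value of 0.30 without control replicates 1 and 2. Rorb ranged from 6.59 to 8.63 CPM in control and from 9.95 to 12.5 CPM in mimic (0.45, SE 0.0734, adjusted p = 0.000196), also without overlap. Npas2, a relative of Clock that can replace it, had 6.08 ± 0.242 CPM in control and 6.76 ± 0.253 in mimic (log2 fold change 0.15, adjusted p = 0.0620). Of the alternatives run, Npas2 passed only without control replicate 4 (0.17, adjusted p = 0.0485). Arntl2, a relative of Arntl, was scarce in both groups, at 1.52 and 1.59 CPM (0.06, adjusted p = 0.815).

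Of 6 other repressors, Bhlhe41 (DEC2), which competes for E-boxes, fell and Timeless rose, both without overlap between the groups. Bhlhe41 had 13.8 ± 0.906 CPM in control and 10.7 ± 0.887 in mimic (log2 fold change -0.37, SE 0.0624, adjusted p = 0.000332). Its relative Bhlhe40 (DEC1) had 34.9 ± 2.66 and 33.6 ± 1.36 CPM (-0.05, adjusted p = 0.517). Timeless, which in mammals is known mainly for its work at the replication fork, had 7.13 ± 0.597 CPM in control and 11.4 ± 0.617 in mimic (0.68, SE 0.0637, adjusted p = 5.84e-07). Ciart, a repressor under strong control of the clock, and Nfil3, which competes with DBP for D-boxes, had log2 fold changes of -0.16 (adjusted p = 0.169) and -0.08 (adjusted p = 0.426).

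The relatives of Dbp did not share its direction. Hlf, with 9.99 ± 0.830 CPM in control and 12.1 ± 0.837 in mimic, rose without overlap between the groups (log2 fold change 0.27, SE 0.0650, adjusted p = 0.00526). Tef, at 206 and 218 CPM the most abundant of the PAR bZIP genes by CPM, had a log2 fold change of 0.09 (adjusted p = 0.0575) and passed in DESeq2 (adjusted p = 0.00912) and limma-voom (0.0471), and without control replicates 1 and 2 (0.09, adjusted p = 0.0125).

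Of 13 genes that act on clock proteins, 2 passed, beside 22.2% of all tested genes. The deubiquitinase Usp2, itself an output of the clock, rose from 32.4 ± 1.76 to 40.4 ± 2.01 CPM (log2 fold change 0.32, SE 0.0449, adjusted p = 4.65e-05). Usp7, a deubiquitinase that stabilises CRY1, rose by 0.13 (adjusted p = 0.00638). The other 11, among them the casein kinase genes Csnk1d and Csnk1e, did not pass. Of 10 cofactors 0 passed in edgeR, DESeq2 or limma-voom, 2 had an unadjusted p below 0.05 in each, and their log2 fold changes ranged from -0.07 to 0.09.

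Of 10 genes known as clock outputs, 5 rose and 1 fell, where 22.2% of all tested genes passed in either direction. Wee1, a kinase that holds cells before mitosis, rose from 12.4 ± 0.775 to 18.0 ± 0.966 CPM (log2 fold change 0.53, SE 0.0532, adjusted p = 1.16e-06), and Cdkn1a, which encodes the cell cycle inhibitor p21, from 45.7 ± 1.64 to 67.0 ± 2.73 CPM (0.55, SE 0.0377, adjusted p = 1.35e-08). Tsc22d3 (GILZ), a mediator of glucocorticoid action, rose by 0.46, the Kruppel-like factor gene Klf9 by 0.19 and Lonrf3 by 0.29. Tspo, a protein of the outer mitochondrial membrane abundant in glia, fell by 0.48 on the log2 scale (adjusted p = 0.0196) from 3.22 ± 0.626 to 2.31 ± 0.452 CPM. Without mimic replicate 1 or mimic replicate 6 its adjusted p was 0.0525 or 0.0522. Nampt, Cirbp, Por and Fmo2 did not pass.

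**Figure D5:**
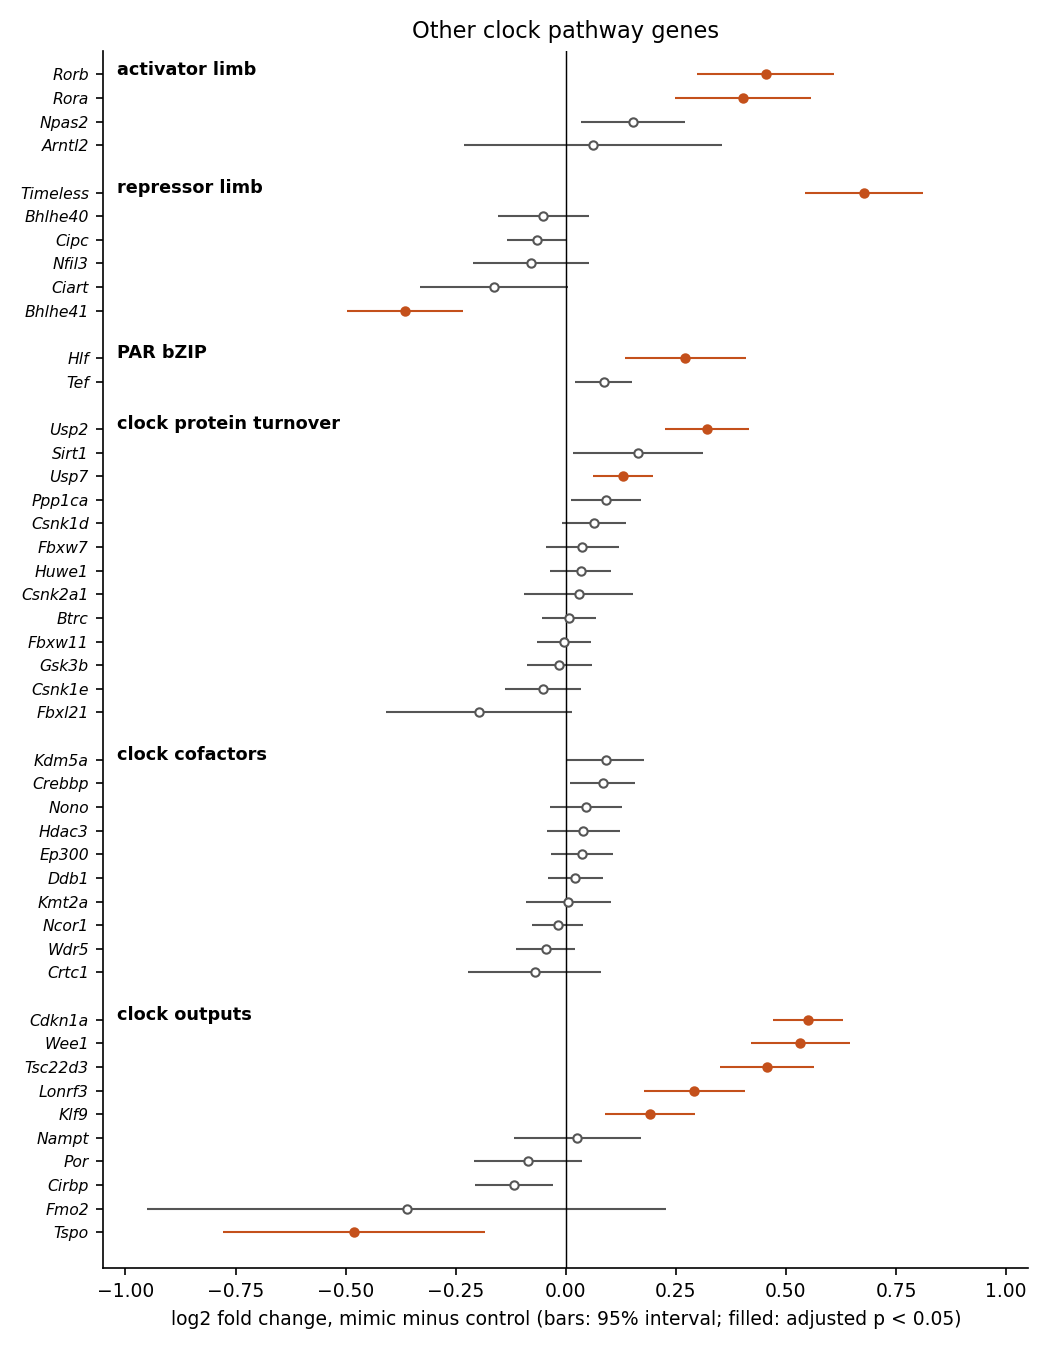
Log2 fold change of mimic minus control (horizontal axis) of the 45 other clock pathway genes by list, with 95% intervals, filled orange where the adjusted p was below 0.05. The 10 cofactors lie between -0.07 and 0.09, while Rora, Rorb, Timeless, Cdkn1a, Wee1 and Tsc22d3 lie above 0.4.

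Per1 is also induced by glucocorticoids and through CREB, so genes of these responses were read beside it. Of 10 glucocorticoid-responsive genes 9 passed, beside 22.2% of all tested genes, and they did so in both directions: Fkbp5 (log2 fold change 0.32), Nr3c1, the receptor itself (0.35), and Ddit4 (0.19) rose, while Cebpd (-1.21), Pdk4 (-0.47), Nfkbia (-0.28), Dusp1 (-0.24), Errfi1 (-0.21) and Sgk1 (-0.15) fell. Of 12 genes of the response to CREB and neuronal activity 7 passed, beside the same 22.2%. Btg2 (0.81), Arc (0.59), Nr4a1 (0.38), Npas4 (0.34), Nr4a2 (0.34) and Egr1 (0.21) rose, and Fos (-0.28) fell. Dusp1 was at -0.15 without control replicates 1 and 2, and Egr1 missed the threshold, at an adjusted p of 0.0513 to 0.0847, without control replicate 2, 3, 4 or 5 or mimic replicate 1, 2, 3 or 4. The gene that fell most, Cebpd, went from 21.4 ± 2.54 to 9.20 ± 1.66 CPM, and the gene that rose most, Btg2, from 27.1 ± 0.701 to 47.5 ± 3.28 CPM, so both moved by more than any of the 10 clock genes.

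Markers of several cell types moved with the groups as well. The counts of markers that rose or fell stand beside 22.2% of all tested genes that passed in either direction. All 6 markers of dividing cells rose, with a median log2 fold change of 1.11, and their sum ranged from 157 to 196 CPM in control and from 339 to 358 in mimic. Timeless, Wee1 and Cdkn1a, which act in the cell cycle, moved in the same libraries. The part of dividing cells in their rise was not tested. Of 8 astrocyte markers 6 rose and 1, Gfap, fell (-0.90), and of 8 markers of the oligodendrocyte lineage 5 rose and 1 fell, with sums of 393 to 681 CPM in control and 768 to 963 in mimic. Of 6 markers of multiciliated ependymal cells 5 fell, with sums of 143 to 166 and 108 to 142 CPM, and of 7 mesenchymal markers 2 fell, with sums of 186 to 254 and 86.9 to 212 CPM. Of 8 neuron markers 1 rose and 2 fell. Microglial markers summed to 8.02 to 14.7 CPM over all libraries, 1 of 6 falling. Endothelial markers summed to 46.5 to 68.5 CPM in control and 28.3 to 50.7 in mimic, 2 of the 4 tested falling, mostly through Kdr, and Cldn5, with 1 count in all 12 libraries together, was not tested. No marker was at 0 in every library. The endothelial markers Pecam1, Flt1 and Cdh5 averaged only 0.718, 0.662 and 0.417 CPM in control, so the endothelial sum was nearly all Kdr. The part of these cell types in the differences of Arntl, Per1, Per3, Cry1 and Dbp was not tested.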

How the data were processed

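RNA sequencing of 6 control and 6 mimic samples was analysed. Per the labels and the study's methods, poly(A) libraries (TruSeq v2) were read as 50 bp single ends, and the authors aligned reads to mm10 with STAR 2.5.2b and counted them per gene with featureCounts of Subread 1.5.1. The deposited values are raw counts per gene. A second deposited table holds a normalized signal, these counts divided by 1 factor per sample, and was used for 1 alternative only. Whether counting used strand is not stated. Genes reaching 5 counts in 50% of samples or more were tested with edgeR 4.0.16 (R 4.3.3; TMM, glmQLFit with robust estimation, no covariate), with Benjamini-Hochberg adjustment over all 18847 genes. CPM used TMM-scaled totals, and RPKM the union of exons in GENCODE M21 (GRCm38). Seed sites and promoter motifs were matched exactly. Alternatives used DESeq2 1.42.0 and limma 3.58.1, other filters and scaling, and fewer samples.

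The members, gene lists and tests were chosen with earlier results of these data known. Named were the 10 clock genes, every other clock, glucocorticoid or CREB list gene with an adjusted p below 0.05, 10 further core clock relatives whatever their p, and for each clock gene past the threshold the 2 most correlated genes with at least 100 counts on average. Of the genes listed for the clock pathway, 2 are not reported here. Other genes (the other pathway genes that did not pass, overlapping genes and single markers) were named after their values were seen.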

Additional observations from a re-analysis of the deposited data

How the results depend on the processing

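Beside the 3 clock genes higher and 2 lower in mimic, the replicate block gave 3 and 2 as well, and median-ratio scaling, either other filter and limma on the deposited normalized values did the same. DESeq2 and limma-voom each gave 4 and 2, through Per2. Of the other clock pathway genes, DESeq2 gave 13 and 3, limma-voom 12 and 2, filterByExpr 12 and 3 and limma on the normalized values 12 and 2. Same-numbered control and mimic samples correlated by -0.04 to 0.09 around their group means. Samples did not correlate best with their own number except mimic replicate 1, so no pairing by number was visible. A pairing with little shared variation would look the same. Testing against a change of 1.2-fold left 0 and 0 clock genes, 5 and 0 other clock pathway genes (main 11 and 2) and 683 and 352 genes in all (main 2163 and 2019). At an unadjusted p below 0.05, 2 clock genes passed that test. Leaving out 1 library gave 2 to 5 clock genes higher (5 without control replicate 1, through Per2 and Cry2) and 2 to 3 lower, 11 to 13 and 1 to 3 pathway genes (1 lower without mimic replicate 1 or 6, through Tspo), and 1880 to 2697 and 1612 to 2453 genes in all. Controls 3 to 6 alone gave 5 clock genes higher and 3 lower, 15 and 3 pathway genes, and 3058 and 2892 genes in all. Requiring an 8-base site left 0 of the 2 clock genes with a seed site. The log2 fold change of Clock, -0.001 with all libraries, changed sign to 0.00141 with median-ratio scaling, 0.00256 in DESeq2, 0.00698 in limma-voom, 0.000593 without a filter, 0.0106 with the replicate block and 0.0148 on the normalized values, and lay between -0.0613 and 0.0318 with 1 library left out. With 1 library left out Nr1d2 lay between -0.0556 and 0.00677, positive without control replicate 4 or 5, and Arntl2 between -0.0217 and 0.132, negative without control replicate 4. The causes were not tested. The standard errors of Clock (0.0773) and Dbp (0.0757) were the largest of the 10.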

Other observations

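Raw counts of the 10 clock genes were summed and scaled to the library total, without TMM scaling. They came to 472 to 492 CPM in control and 493 to 507 CPM in mimic. The closest libraries were control replicate 3 at 491.51 CPM and mimic replicate 5 at 493.29 CPM. With the TMM-scaled CPM used for the single genes, the sums of these libraries changed order, so the groups overlapped. The sum was not tested, and nothing is read from it about the clock as a group.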
